A study of Mus musculus with 8 samples.

Results

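The comparison described here was interleukin-13 (IL-13) added to all-trans retinoic acid (ATRA), against ATRA without IL-13. It used the 4 of 8 arrays whose labels name ATRA and IL-13 together (12 h and 24 h) or ATRA without IL-13 (12 h and 24 h), each pair being compared within its time. All cells were RAW264.7, a mouse macrophage-like line that is a single clone. Besides IL-13 with ATRA and ATRA, the series held cells given IL-13 alone and control cells for which no agent is named, also with 1 array each at 12 h and at 24 h. Cells of the compared groups all received ATRA, so the difference is the effect of IL-13 in the presence of ATRA. The labels call the cells given both agents M2 polarization suppressed, the ATRA and control cells unpolarized and the IL-13 cells M2 macrophages. They give no doses, and nothing in them states that arrays came from independent cultures, so the p-values cover variation among these 8 arrays, which may be technical. With 1 array per treatment and time, the disagreement between 12 h and 24 h served as the spread.

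IL-13 binds a receptor made of the IL-4 receptor alpha chain and an IL-13 receptor chain. Janus kinases on it phosphorylate the transcription factor STAT6, which turns on genes of alternative (M2) macrophage activation, such as arginase and the mannose receptor, and feedback inhibitors of the SOCS family. ATRA is the ligand of the retinoic acid receptors, nuclear receptors that bind DNA and change transcription directly. Phosphorylated STAT dimers bind palindromes made of TTC and GAA, with STAT6 known to favour those with 4 bases between TTC and GAA.

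The promoters of 3 genes that rose strongly are shown because each holds such a palindrome within the 300 bases available, from 250 bases before to 50 after the transcription start. The sequences are RefSeq promoters of GRCm38.p6, all on the plus strand, and run 5′ to 3′ in lower case with every TTCNNNGAA or TTCNNNNGAA in capitals. Cish lay at chr9:107296409-107296708, Itgax at chr7:128129300-128129599 and Batf3 at chr1:191098164-191098463.
Cish promoter: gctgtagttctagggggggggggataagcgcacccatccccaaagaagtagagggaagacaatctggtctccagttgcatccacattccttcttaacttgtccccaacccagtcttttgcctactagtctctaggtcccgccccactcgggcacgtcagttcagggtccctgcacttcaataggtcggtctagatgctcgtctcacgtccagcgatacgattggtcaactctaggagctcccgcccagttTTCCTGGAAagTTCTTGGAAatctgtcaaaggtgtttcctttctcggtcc
Itgax promoter: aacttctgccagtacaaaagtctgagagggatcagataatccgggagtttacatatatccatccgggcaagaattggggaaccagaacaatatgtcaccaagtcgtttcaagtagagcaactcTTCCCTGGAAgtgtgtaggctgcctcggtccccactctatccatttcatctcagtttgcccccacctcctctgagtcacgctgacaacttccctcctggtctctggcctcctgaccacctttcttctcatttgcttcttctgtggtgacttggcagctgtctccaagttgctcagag
Batf3 promoter: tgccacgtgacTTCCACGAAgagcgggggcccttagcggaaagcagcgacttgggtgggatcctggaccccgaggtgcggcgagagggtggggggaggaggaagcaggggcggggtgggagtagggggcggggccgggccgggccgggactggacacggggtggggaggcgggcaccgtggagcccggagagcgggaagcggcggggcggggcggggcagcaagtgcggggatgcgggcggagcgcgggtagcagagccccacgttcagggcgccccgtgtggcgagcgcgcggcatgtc
Both motifs read the same on either strand, and neither can contain the other. In Cish the 2 TTCNNNGAA matches began at base 1 and base 12 of the transcript. The Itgax match, a TTCNNNNGAA, began at base −127 counted from the start, and the Batf3 match, a TTCNNNGAA, at base −239. Of the 41 genes called higher, 27 had a promoter in the RefSeq table. Among these, TTCNNNGAA was in 2 promoters and TTCNNNNGAA in 5 (those of Edn1, Itgax, Lair1, Plekhf1 and Tfec). Of all 32851 promoters in the table, 8.30% held the first motif and 6.95% the second. A match is a description of the letters and not a binding site.

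In cells given ATRA, 56 genes changed with IL-13 by the test, and those that rose most included Arg1, Cish, Itgax, Ccl7, Batf3 and Mrc1. Of 15456 genes tested with limma, 41 were called higher (0.265% of genes tested) and 15 lower (0.097%) at a Benjamini-Hochberg adjusted p under 0.05, and 1998 had an unadjusted p under 0.05. The genes called higher were 1.05 to 9.39 log2 units higher, with a median of 2.23 (2.09 with lower limits in place of fitted values). The genes called lower differed by at most 3.37 log2 units in the fit, with a median of −1.58 (−1.25 with lower limits). The 3.37 belonged to a feature without a symbol that was at background with both agents, and that was at least 2.16-fold lower. All 41 and all 15 had the same sign at 12 h and at 24 h, which the test itself favours. The median over all genes was 0.00, and 50.2% of all genes were higher in sign. The count rested on all 8 arrays. It was 3 higher and 0 lower without either control array, and 8 and 0 without the 12 h IL-13 array. It was 21 and 71 without the 12 h ATRA array, 23 and 56 without the 24 h ATRA array, 67 and 2 without the 12 h IL-13 with ATRA array, and 82 and 3 without the 24 h one. Without the 24 h IL-13 array it was 33 and 8. Of the named genes that were called, only Cish, Mpdz and Pax9 kept the call in every refit without an array. Every other one lost its call in at least 2 of the 8 refits. Mpdz and Pax9 were well above background only on the arrays with both agents. Their spread was thus largely that of background values, so keeping these calls is no independent evidence.

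**Figure D1:**
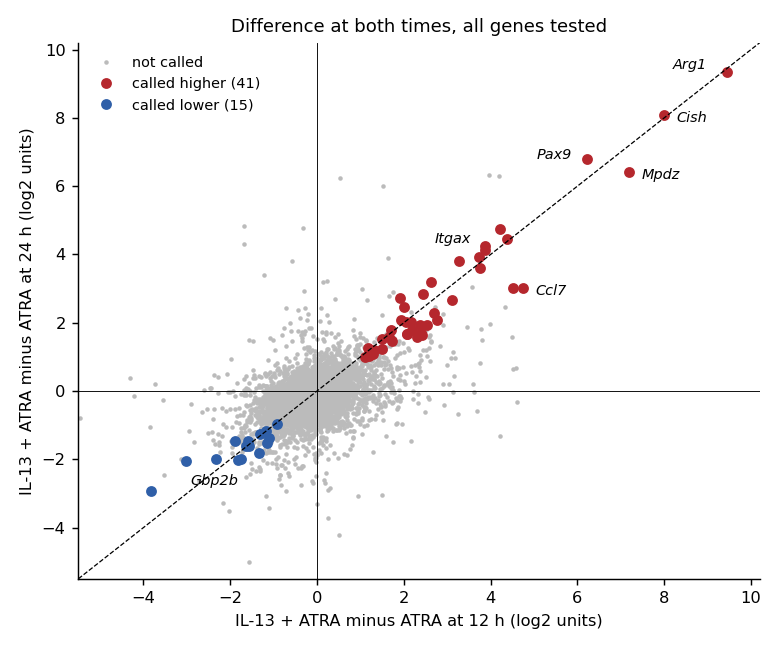
The log2 difference between IL-13 with ATRA and ATRA at 24 h (y axis) is plotted against that at 12 h (x axis) for the 15456 genes tested, with the 41 genes called higher in red and the 15 called lower in blue. Arg1, at 9.44 at 12 h and 9.33 at 24 h, lies farthest from the origin, and the called genes lie along the dashed line of equal differences.

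The feedback inhibitors Cish and Socs1 rose. Cish, which blocks STAT signalling at receptors, had log2 signals of 10.14 and 10.69 at 12 h and 24 h in cells given IL-13 with ATRA, against 2.15 and 2.59 in ATRA cells. These are log2 values of the scaled array signal, as are all levels below. No ATRA array was well above background, so the fold is a lower limit. It came to at least 156-fold higher for Cish (adjusted p = 0.0019). Here and below, an adjusted p beside such a limit belongs to the fitted difference, signals at background included, and not to the limit. With IL-13 alone its signals were 10.22 and 10.68, so the levels with and without ATRA differed by less than those at 12 h and 24 h. Socs1, an inhibitor of Janus kinases, had 9.42 and 9.25 in cells given IL-13 with ATRA, against 6.32 and 6.58 in ATRA cells. Socs1 rose by 2.88 ± 0.24 log2 units (limma standard error, as for every ± below; adjusted p = 0.026), against 2.61 ± 0.24 with IL-13 alone.

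Of the 30 tested genes of IL-4 and IL-13 receptors, JAK-STAT signalling and feedback, these 2 rose and 0 fell, and the list's median was −0.04. Over all 15456 genes tested, 0.265% were called higher and 0.097% lower with ATRA present, and 0.679% and 0.595% with IL-13 alone. These shares stand beside the count of every list below. All lists were drawn up with earlier results of these data known, so their counts are no independent evidence. Il4ra, the shared receptor chain, was 1.42 lower on the log2 scale in the fit (−1.42 ± 0.20) and did not pass the test (adjusted p = 0.0809). Its signals were 6.34 and 6.25 in cells given IL-13 with ATRA, against 7.69 and 7.73 in ATRA cells. Il13ra1, the chain that binds IL-13, differed by −0.57 ± 0.16 (adjusted p = 0.266). Stat6 itself differed by −0.01 ± 0.11 on the probe used (adjusted p = 0.965), with signals between 11.26 and 11.48 on all 4 arrays. Its other 2 probes, above background on all 8 arrays, differed by −0.11 and −0.69. Stat2, which acts in interferon signalling, differed by −0.84 ± 0.10 (adjusted p = 0.0672).

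Arginase showed the largest fitted difference among called genes, although genes known only by a lower limit, such as Cish, cannot be ranked against it. Arg1, which turns arginine into ornithine and marks alternative activation, had 13.57 and 13.84 in cells given IL-13 with ATRA, against 4.12 and 4.51 in ATRA cells. It rose by 9.39 ± 0.50 log2 units (670-fold; adjusted p = 0.0098). Its signals with IL-13 alone were lower, at 7.48 and 8.99, and those in control cells were 1.57 and 0.78 and not well above background. The interaction was not called for Arg1, and with control arrays below background its size is not given. The call was lost without either control array (adjusted p = 0.0502 and 0.0516). Azin2, an antizyme inhibitor that promotes polyamine synthesis, had 4.76 and 5.20 in cells given IL-13 with ATRA, against 0.89 and 1.08 in ATRA cells, which were not well above background. The Azin2 rise was at least 3.63-fold (adjusted p = 0.0128). Of 20 tested genes of arginine and polyamine metabolism, Arg1 was the 1 called member and the list's median was 0.06. Azin2 is not on that list. Arg2, the mitochondrial arginase, was 2.02 ± 0.52 higher in the fit without passing (adjusted p = 0.237), with 3.08 at 12 h and 0.95 at 24 h.

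**Figure D2:**
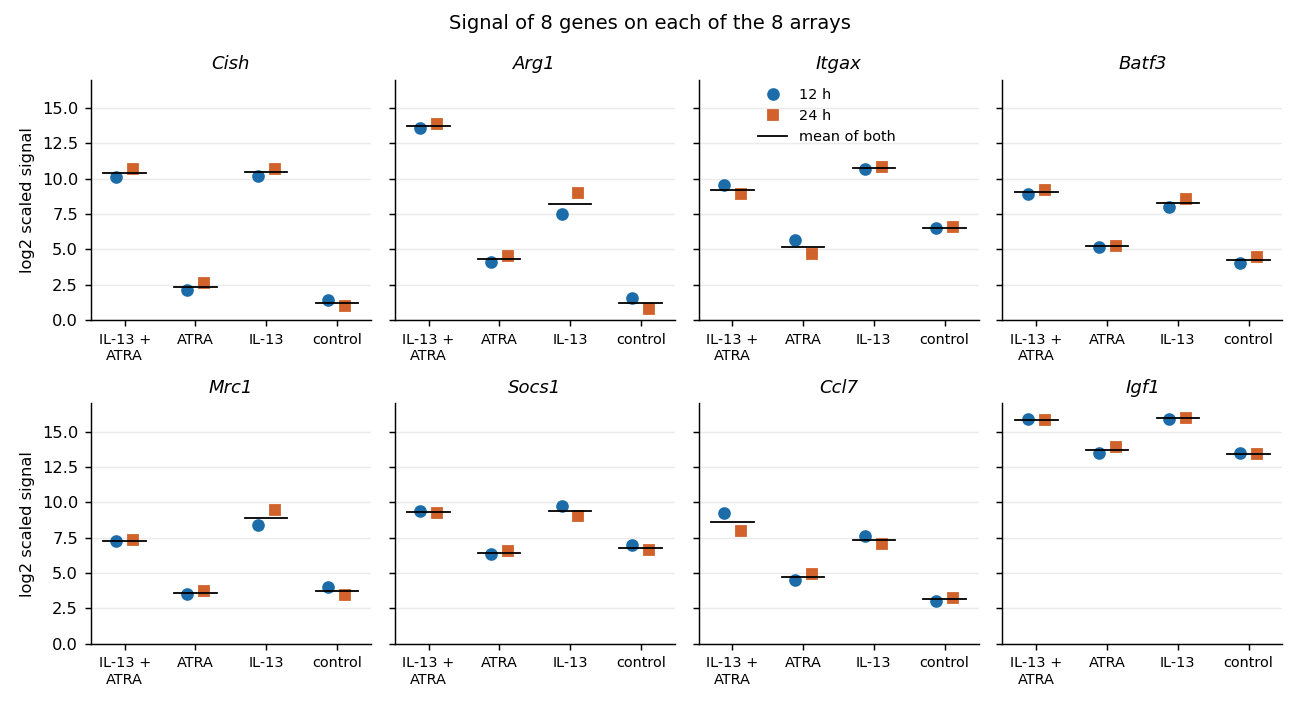
The log2 scaled signal (y axis) of 8 genes is plotted for each array at 12 h (circles) and 24 h (squares), with the groups from left to right IL-13 with ATRA, ATRA, IL-13 and control, and bars at the mean of both arrays. The 8 genes were picked from those called higher with ATRA present. Arg1 was also higher with both agents (13.57 and 13.84) than with IL-13 alone (7.48 and 8.99).

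The transcription factors Batf3, Irf4, Tfec and Myc rose, while Egr2, Klf4 and Atf3 did not pass the test. Batf3, a leucine zipper factor needed for a class of dendritic cells, had 8.94 and 9.18 in cells given IL-13 with ATRA, against 5.20 and 5.25 in ATRA cells. It rose by 3.84 ± 0.15 log2 units (adjusted p = 0.0027), against 4.04 ± 0.15 with IL-13 alone. Irf4, a factor of M2 polarization, had 5.68 and 6.12 with both agents, against 3.63 and 4.09 with ATRA. Irf4 rose by 2.04 ± 0.15 (adjusted p = 0.023), against 3.39 ± 0.15 with IL-13 alone, and the interaction of −1.35 did not pass (adjusted p = 0.587). Tfec, a macrophage factor of the MiT family, rose by 1.51 ± 0.12 (adjusted p = 0.023). Its signals were 8.84 and 9.19 with both agents, against 7.35 and 7.66 with ATRA. Myc, a driver of growth and proliferation, had 8.37 and 7.05 with both agents, against 5.60 and 4.96 with ATRA. It rose by 2.43 ± 0.19 (adjusted p = 0.023) on the probe used, but the call was lost when its probes were averaged (1.89, adjusted p = 0.098). Myc levels with both agents stayed below those of control cells, which were 8.62 and 7.84. Egr2, an early growth response factor of M2 cells, was 1.86 ± 0.30 higher in the fit and did not pass (adjusted p = 0.108), with 2.51 at 12 h and 1.21 at 24 h. Klf4, a zinc finger factor, was 1.30 ± 0.26 higher in the fit (adjusted p = 0.157), beside 0.01 ± 0.26 with IL-13 alone. Klf4 levels were 11.57 and 11.21 with both agents and 10.51 and 9.67 with ATRA, all below the 12.60 and 12.26 of control cells. Atf3, a stress-induced factor, was 1.51 ± 0.20 higher in the fit (adjusted p = 0.0753).

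The surface molecules Itgax, Mrc1 and Cd74 rose. Itgax, the CD11c chain, had 9.56 and 8.91 in cells given IL-13 with ATRA, against 5.68 and 4.67 in ATRA cells. It rose by 4.06 ± 0.31 log2 units (adjusted p = 0.023), against 4.21 ± 0.31 with IL-13 alone. A second Itgax probe, well above background on 5 of 8 arrays, differed by 1.19, against 2.68 with IL-13 alone. The mean of both probes (2.62) did not pass (adjusted p = 0.0757). Both ATRA-containing groups were lower than their counterparts without ATRA, which had 10.68 and 10.83 with IL-13 and 6.51 and 6.57 in control cells. Mrc1, which takes up glycoproteins, had 7.24 and 7.32 with both agents, against 3.49 and 3.73 with ATRA. Mrc1 rose by 3.67 ± 0.37 (adjusted p = 0.0404), against 5.19 ± 0.37 with IL-13 alone. Cd74, the invariant chain of MHC class II, had 14.01 and 14.27 with both agents, against 12.00 and 11.81 with ATRA, and rose by 2.23 ± 0.14 (adjusted p = 0.0155). Of 18 tested antigen presentation genes Cd74 was the 1 called, and the list's median was 0.01. H2-Ab1, a class II chain, differed by 0.29 ± 0.46 (adjusted p = 0.796), beside 2.37 ± 0.46 with IL-13 alone, where it did not pass either (adjusted p = 0.0815). Cd274, the checkpoint ligand PD-L1, was 2.24 ± 0.25 higher in the fit and fell just short of the threshold (adjusted p = 0.0527). Cd40, a costimulatory receptor, was 1.04 ± 0.19 higher in the fit (adjusted p = 0.136). Of 15 tested dendritic cell and costimulatory genes 3 rose (Itgax, Batf3 and Irf4) and 0 fell, with a median of 0.22, or 0.18 with lower limits in place of fitted values.

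Chemokines and growth factors were raised in part. Ccl7, a monocyte attractant, had 9.28 and 7.97 in cells given IL-13 with ATRA, against 4.54 and 4.95 in ATRA cells. It rose by 3.88 ± 0.42 (4.74 at 12 h, 3.02 at 24 h; adjusted p = 0.0482) and was the 1 called of 16 tested chemokines, whose median was 0.16. Without ATRA 3 of the 16 were called higher and the median was 1.06. The list's summed linear signal was 129784 and 136941 on the ATRA arrays, against 57241 and 68005 on the control arrays. It was 208779 and 131865 with both agents, and 182026 and 135646 with IL-13 alone. The part of the level with ATRA in the smaller median was not tested. Ccl2, also a monocyte attractant, was 1.92 ± 0.36 higher in the fit without passing (adjusted p = 0.14), with 2.57 at 12 h and 1.26 at 24 h. Ccl24, which attracts eosinophils, was 1.78 ± 0.42 higher in the fit (adjusted p = 0.203). Its signals were 11.36 and 11.22 with both agents and 8.83 and 10.19 with ATRA, which was above the 8.02 and 8.25 of IL-13 alone. Ccl4 was 1.58 ± 0.45 higher in the fit (adjusted p = 0.266).

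Igf1, a growth factor made by alternatively activated macrophages, had 15.89 and 15.83 with both agents, against 13.51 and 13.89 with ATRA. It rose by 2.16 ± 0.15 (adjusted p = 0.0202), and its other 3 probes differed by 2.32 to 2.49. Flt1, a receptor of vascular endothelial growth factors, rose by 2.09 ± 0.11 (adjusted p = 0.0098), with 11.30 and 11.10 for both agents, against 9.14 and 9.08 for ATRA. Pdgfa, a platelet-derived growth factor chain, rose by 1.12 ± 0.12 (adjusted p = 0.0482), a call lost whichever of the 8 arrays was left out. The metalloproteinase inhibitor Timp1 rose by 1.60 ± 0.17 (adjusted p = 0.0416) on the probe used, but a second probe differed by 0.31 and the mean of both did not pass (adjusted p = 0.33). Edn1, the vasoconstrictor endothelin, was at least 1.5-fold higher (adjusted p = 0.023), being well above background on 1 of 2 arrays with both agents and on 0 of 2 with ATRA. With Igf1, Pdgfa, Timp1 and Edn1, 4 of 17 tested growth factor, matrix and protease genes rose and 0 fell, beside 0.265% and 0.097% of all genes. That list had a median of 0.37 (0.96 at 12 h and 0.06 at 24 h), or 0.15 with lower limits in place of fitted values. Hbegf, an epidermal growth factor receptor ligand, was 2.15 ± 0.51 higher in the fit without passing (3.14 at 12 h, 1.15 at 24 h; adjusted p = 0.203). Vegfc, a lymphatic growth factor, was at least 3.65-fold higher without passing (adjusted p = 0.0893).

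Of the 47 genes on the list of alternative activation markers, 43 were on the array and 28 passed the filter on dim probes. Of the 28, 7 rose (Arg1, Batf3, Mrc1, Myc, Flt1, Irf4 and Tfec) and 0 fell, beside 0.265% and 0.097% of all genes. The list was drawn up with earlier results of these data known, so its direction is no independent evidence. Its median was 1.40, or 1.29 with lower limits in place of fitted values, beside 0.00 over all genes, and 26 of the 28 were higher in sign. The filter keeps a gene bright in any treatment, so members high only with IL-13 could enter through it. With no filter on dim probes the list's median was 0.96, with 1 called higher. Under normexp background correction it was 1.03, with 6 called higher. Without ATRA 11 of the 28 rose, with a median of 1.62 (1.56 with lower limits). Without either control array 0 of the list were called higher with ATRA present, while the median was 1.30. The list's median with ATRA present was 1.71 at 12 h and 1.08 at 24 h, against 1.74 and 1.55 without ATRA. The chemokine median with ATRA present was likewise 0.55 at 12 h and −0.04 at 24 h, against 1.22 and 0.94 without ATRA. These differences between times were not tested, and time cannot be told apart from slide. Several members that did not pass with ATRA present differed more at 12 h than at 24 h. The test counts such disagreement as spread, so it works against calling a difference that is larger at 1 time. Mgl2, a lectin, was 3.78 higher at 12 h and 1.83 at 24 h (adjusted p = 0.14), Il4i1, an amino acid oxidase, 3.75 and 0.83 (adjusted p = 0.307), and Cd200r1, an inhibitory receptor, 1.83 and 0.66 (adjusted p = 0.215). The scavenger receptor Cd36 was 1.29 higher at 12 h and 0.92 at 24 h (adjusted p = 0.173).

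Some markers stood high in the ATRA cells without IL-13. Clec7a, the beta-glucan receptor, had 15.00 and 14.61 with both agents, against 14.33 and 14.21 with ATRA. That difference of 0.53 ± 0.14 did not pass (adjusted p = 0.237), while IL-13 alone raised Clec7a by 2.05 ± 0.14, to 14.27 and 14.28 against 12.26 and 12.20 in control cells. Tbxas1, thromboxane synthase, had 11.84 and 11.69 with both agents, against 11.26 and 11.15 with ATRA (0.56 ± 0.17, adjusted p = 0.292). IL-13 alone raised Tbxas1 by 2.07 ± 0.17. Dhrs3, a retinaldehyde reductase, differed by 0.37 ± 0.19 with ATRA present (adjusted p = 0.473) and by 1.51 ± 0.19 alone. C1qa, a chain of complement C1q, had 10.25 and 11.38 with both agents, against 10.16 and 10.98 with ATRA (0.25 ± 0.72, adjusted p = 0.896). Without ATRA C1qa had 7.79 and 9.34 with IL-13, against 5.99 and 4.50 in control cells. Tgm2, a transglutaminase and M2 marker, had 14.34 and 14.49 with both agents, against 13.12 and 13.79 with ATRA (0.96 ± 0.39, adjusted p = 0.394). Tgm2 did not pass with IL-13 alone either (0.47 ± 0.39, adjusted p = 0.479), and its other 2 probes there differed by −0.25 and −0.18. The interaction was called for none of these 5 genes, the lowest adjusted p being 0.49 for Clec7a. Of 14 tested complement genes 0 were called with ATRA present (median −0.04), against 2 higher without ATRA (median 0.54).

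**Figure D3:**
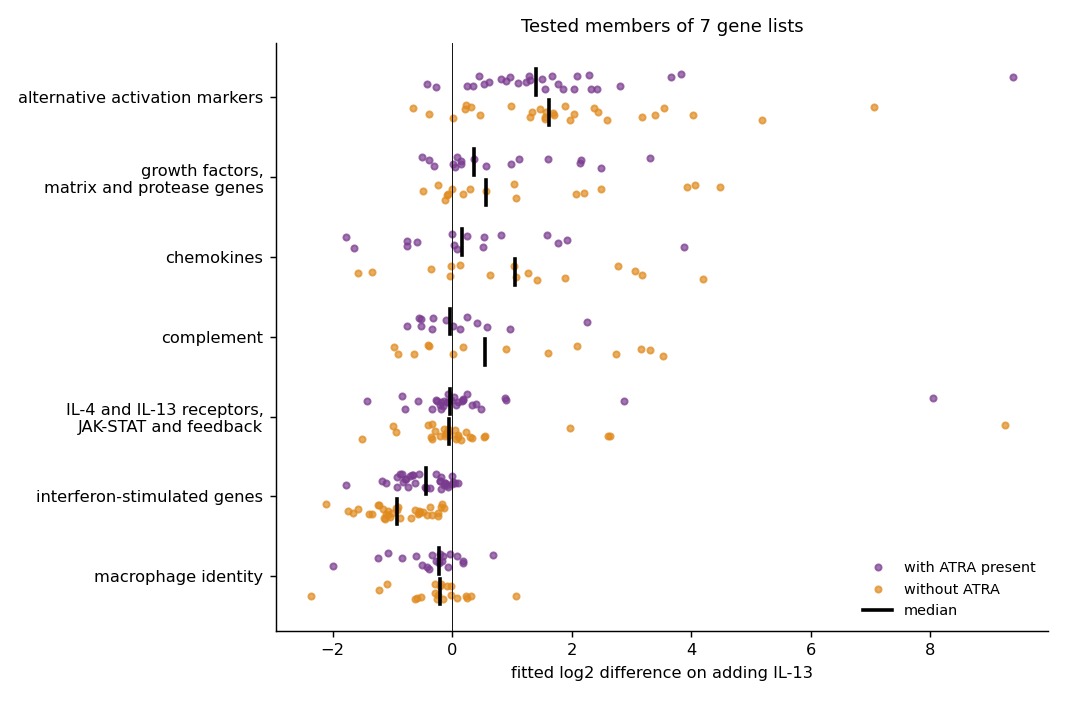
The fitted log2 difference on adding IL-13 (x axis) is plotted for the tested members of 7 gene lists (rows), with ATRA present (upper, purple points) and without ATRA (lower, orange points), and a black bar at each median. The median of the alternative activation markers was 1.40 with ATRA present and 1.62 without, and that of the interferon-stimulated genes −0.44 and −0.92.

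Genes that fell were fewer, and their median difference was smaller. The fractalkine receptor Cx3cr1, a macrophage gene, had 13.004 and 12.21 in cells given IL-13 with ATRA, against 14.11 and 13.58 in ATRA cells. It fell by 1.24 on the log2 scale (−1.24 ± 0.12, adjusted p = 0.0349), beside −1.21 ± 0.12 with IL-13 alone. Itga6, a chain of laminin receptors, had 8.70 and 8.32 with both agents, against 10.26 and 9.93 with ATRA. Itga6 fell by 1.58 (adjusted p = 0.0343), and its other 2 probes differed by −1.25 and −1.44. Jam2, a junctional adhesion molecule, fell by 1.58 (adjusted p = 0.0453), with 8.83 and 8.42 for both agents, against 10.16 and 10.25 for ATRA. Its other probe, above background on 3 of 8 arrays, differed by −3.38. With both agents Jam2 lay near the control level of 8.69 and 8.80. Slc9a9, an endosomal proton exchanger, fell by 1.18 (adjusted p = 0.0343), likewise to near control (4.32 and 4.10 with both agents, 5.50 and 5.28 with ATRA, 4.47 and 4.14 in control cells). Gbp2b, an interferon-induced GTPase of a family of similar sequences, fell to 1.27 and 1.03 with both agents, against 3.61 and 3.03 with ATRA. It was not well above background on either array with both agents, and was at least 1.05-fold lower. The fitted difference of −2.17 passed the test (adjusted p = 0.0202) but rests on signals at background. It ranged from −2.36 to −0.10 over the alternatives, and the call was lost under normexp background correction. Wdr38 fell by 1.53 (adjusted p = 0.0349), Fam131a by 1.29 (adjusted p = 0.0333) and Fabp2, a fatty acid-binding protein, by 0.95 (adjusted p = 0.0482). Fabp2 differed by 0.00 under another background correction. Leaving out 1 array in turn ended the calls of Jam2, Cx3cr1, Fam131a, Slc9a9 and Fabp2 for each of the 8 arrays. The other 7 genes called lower had no symbol in the RefSeq table.

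Interferon-stimulated genes were lower in sign without passing the test. Of 35 tested, 0 were called by limma with ATRA present, and 31 were lower in sign, with a list median of −0.44 (12 h −0.40, 24 h −0.49). Without ATRA 3 of the 35 were called lower, and the median was −0.92. The list's summed linear signal was 85213 and 72215 on the ATRA arrays, against 111528 and 140623 on the control arrays. It was 76447 and 54945 with both agents, and 93494 and 61389 with IL-13 alone. The part of the level with ATRA in the smaller median was not tested. Cxcl10, an interferon-induced chemokine, had 10.08 and 8.73 with both agents, against 11.42 and 10.94 with ATRA (−1.77 ± 0.35, adjusted p = 0.158). Oas3, an oligoadenylate synthetase, differed by −1.17 ± 0.21 (adjusted p = 0.137; −0.30 on a second probe), and Oasl2 by −0.92 ± 0.28 (adjusted p = 0.29). Siglec1, an interferon-inducible sialic acid receptor of macrophages, differed by −1.99 ± 0.44 (adjusted p = 0.186; −0.61 on a second probe). Tlr2, a receptor of bacterial lipopeptides, differed by −1.02 ± 0.14 (adjusted p = 0.0789), and the nuclear receptor Nr4a1 by −1.03 ± 0.14 (adjusted p = 0.0824).

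Other genes that rose included Cst7, a cystatin that inhibits lysosomal proteases, which had 10.11 and 9.78 with both agents, against 7.66 and 6.96 with ATRA (2.64 ± 0.14, adjusted p = 0.0098). Casp6, an apoptotic protease, rose by 1.998 ± 0.20 (adjusted p = 0.0349), with 12.14 and 11.57 for both agents, against 9.94 and 9.77 for ATRA. Gstt4, a glutathione transferase, was at least 4.30-fold higher (adjusted p = 0.0343), with 5.49 and 4.96 for both agents, against 0.97 and 1.94 for ATRA. Plpp3, a lipid phosphatase, rose at least 5.20-fold (adjusted p = 0.023). Pcdhb11, one of a cluster of similar protocadherin genes, rose at least 5.43-fold (adjusted p = 0.0287). For 4930552P06Rik the rise was at least 5.91-fold (adjusted p = 0.0361). The ATRA arrays were well above background for none of these last 4 genes, and hybridization of related sequences to the Pcdhb11 probe was not tested. Another 10 genes with a symbol that were called higher, which the naming rule left out, differed by 1.19 to 2.32, and 6 further features had no symbol in the RefSeq table. Outside the calls, C3, the central complement component, was 2.26 ± 0.44 higher in the fit (adjusted p = 0.149; 1.03 on a second probe, above background on 3 of 8 arrays). Ocstamp, which acts in osteoclast fusion, was 2.42 ± 0.33 higher in the fit (adjusted p = 0.0782, with 1.58 on a second probe). Ocstamp had 9.13 and 7.87 for both agents and 6.22 and 5.93 for ATRA, all below the 9.82 and 9.97 of control cells. Acp5, an osteoclast phosphatase, was 1.99 ± 0.43 higher in the fit (adjusted p = 0.181). The arginine transporter Slc7a2 was at least 1.67-fold higher without passing (adjusted p = 0.292). The death receptor Fas differed by 0.90 ± 0.21 (adjusted p = 0.209) and the antigen presentation gene H2-DMa by 0.75 ± 0.16 (adjusted p = 0.174). The cytokine Il10 was at least 1.37-fold higher without passing (adjusted p = 0.449). Il10 signals with both agents, 4.07 and 3.47, lay below the 4.70 and 5.00 of control cells.

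To see how much of the IL-13 response persisted with ATRA, the genes called for IL-13 against control were followed in the arrays with ATRA. That comparison shares no array with the one above, although its genes were chosen for large differences, so their values without ATRA are inflated by the choice. Both came from 1 fit with a per-gene variance over all 8 arrays, so their calls are not independent, and the overlap of calls is a description. IL-13 alone raised 105 genes (0.679% of 15456) and lowered 92 (0.595%). Of the 105, 34 were also called higher with ATRA present, which is 32.4% of the genes raised alone and 82.9% of the 41 raised with ATRA present. Of the 92, 9 were also called lower, which is 9.78% of those lowered alone and 60.0% of the 15 lowered with ATRA present. None of the 197 was called in the opposite direction. By sign, 95 of the 105 were higher with ATRA present, 93 of them at both times, and 83 of the 92 were lower, 78 of them at both times. The medians over the 105 were 1.22 with ATRA present and 2.05 without, or 1.19 and 1.70 with lower limits in place of fitted values. Over the 92 they were −0.72 and −1.33, or −0.59 and −1.22. Chosen instead by their calls with ATRA present, the 41 genes called higher had medians of 2.23 with ATRA present and 2.05 without. The 15 called lower had −1.58 and −1.23. Which of the medians was larger thus depended on the comparison that chose the genes.

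Of the 105 genes 55 were at least 2-fold higher at both times with ATRA present, and of the 92 genes 18 were at least 2-fold lower at both times. Among the 73 of the 105 that were well above background on all 8 arrays, the difference with ATRA present was a median of 78.2% of that without ATRA, with quartiles of 54.3% and 94.5%. It was 75% or more for 39 genes, 25% to 75% for 30 and under 25% for 4. Among the 56 such genes of the 92 the median was 60.9%, with quartiles of 39.9% and 83.9%. Among these it was 75% or more for 19 genes, 25% to 75% for 29 and under 25% for 8. Both sets were chosen by their calls without ATRA, which by itself lowers these shares. Requiring signal on all 8 arrays left out genes at background with both agents, which by itself raises them. Such genes were Neb and 1700025L06Rik among those raised alone, and Gja3 and Pilrb1 among those lowered. Genes that kept a large difference, such as Cish, were left out too, and the net effect on the shares was not tested. Across all 15456 genes the differences with and without ATRA correlated with r = 0.61 (Pearson) and rho = 0.68 (Spearman). Genes are not independent replicates, and both comparisons shared the slides.

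**Figure D4:**
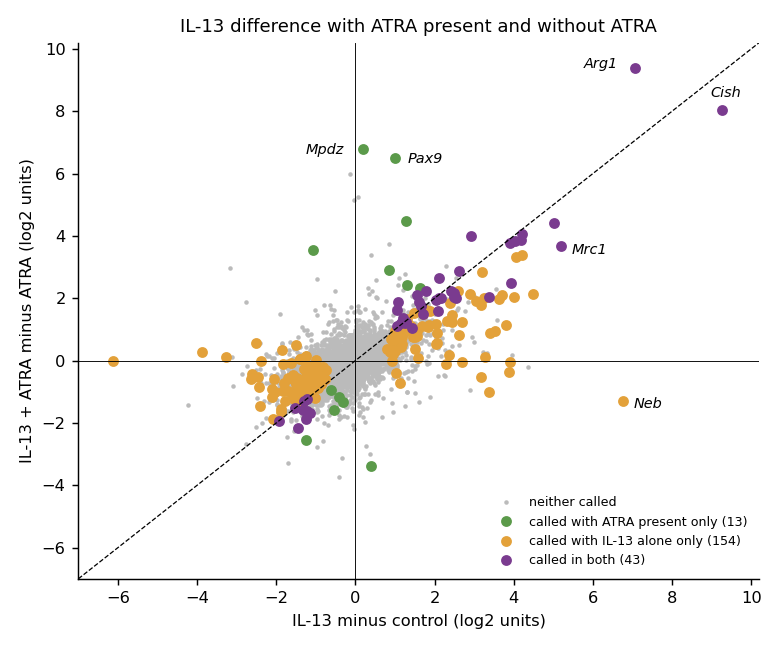
The fitted log2 difference between IL-13 with ATRA and ATRA (y axis) is plotted against that between IL-13 and control (x axis) for 15456 genes, coloured by where they were called. Of the called genes, 43 were called in both comparisons, 13 with ATRA present only and 154 with IL-13 alone only. The dashed line marks equal differences, and values of genes below background in a comparison are plotted as fitted.

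Counted by size alone, 124 genes (0.802%) were at least 2-fold higher at both times with ATRA present, against 202 (1.31%) without. At least 2-fold lower were 112 (0.725%), against 246 (1.59%). Of these 77 genes were higher in both, which is 62.1% of the 124 and 38.1% of the 202. Lower in both were 43 genes, 38.4% of the 112 and 17.5% of the 246. With ATRA present 16 genes were at least 2-fold different in opposite directions at 12 h and 24 h, and the differences at 12 h and 24 h correlated across genes with r = 0.51 (Pearson) and rho = 0.49 (Spearman).

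Among the 10 named genes that IL-13 alone raised most, 9 were higher in sign with ATRA present and 6 of these were called (Cish, Arg1, Mrc1, Itgax, Ccl7 and Batf3). F10, coagulation factor X, was 3.40 ± 0.43 higher in the fit with ATRA present (adjusted p = 0.0686), beside 4.20 ± 0.43 without. Hbegf was 2.15 higher, beside 4.48 without, and Vegfc is given above. Neb, the muscle protein nebulin, was the exception. It had 1.17 and 1.82 with both agents, against 3.78 and 1.78 with ATRA, while without ATRA it had 7.60 and 7.45 with IL-13, against 0.78 and 0.74 in control cells. With IL-13 alone the Neb rise was at least 22.7-fold (adjusted p = 0.023), but the interaction did not pass (adjusted p = 0.354), and its size is not given because 2 of its groups were at background. Another 5 Neb probes did not pass the filter.

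Among the 10 named genes that IL-13 alone lowered most, 0 were called with ATRA present. Bmf, a pro-apoptotic BCL2 family member, differed by −1.88 ± 0.28 (adjusted p = 0.0946; −0.77 and −0.69 on its other 2 probes), and Alox5, the 5-lipoxygenase, by −1.56 ± 0.21 (adjusted p = 0.0769). These values lay near those without ATRA, −2.08 ± 0.28 and −1.87 ± 0.21. Oas3 differed by −1.17 (−2.10 without ATRA). F11r, a junctional adhesion molecule, and Dnaaf1, a ciliary assembly factor, were not well above background with both agents. F11r was at least 1.40-fold lower with ATRA present (adjusted p = 0.235), beside a difference of −1.83 without ATRA, and Dnaaf1 at least 1.28-fold lower (adjusted p = 0.378), against at least 1.21-fold lower without ATRA. Gper1, an oestrogen-binding membrane receptor, had 5.52 and 5.71 with both agents, against 5.70 and 5.56 with ATRA. Without ATRA Gper1 had 5.31 and 5.56 with IL-13, against 8.15 and 7.51 in control cells, so the 6 arrays with either agent lay together below control. Its interaction of 2.38 did not pass (adjusted p = 0.566). Gja3, Pilrb1, Hecw2 and Foxb2 were well above background on none of the 4 arrays with ATRA, and no difference is given for them.

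**Figure D5:**
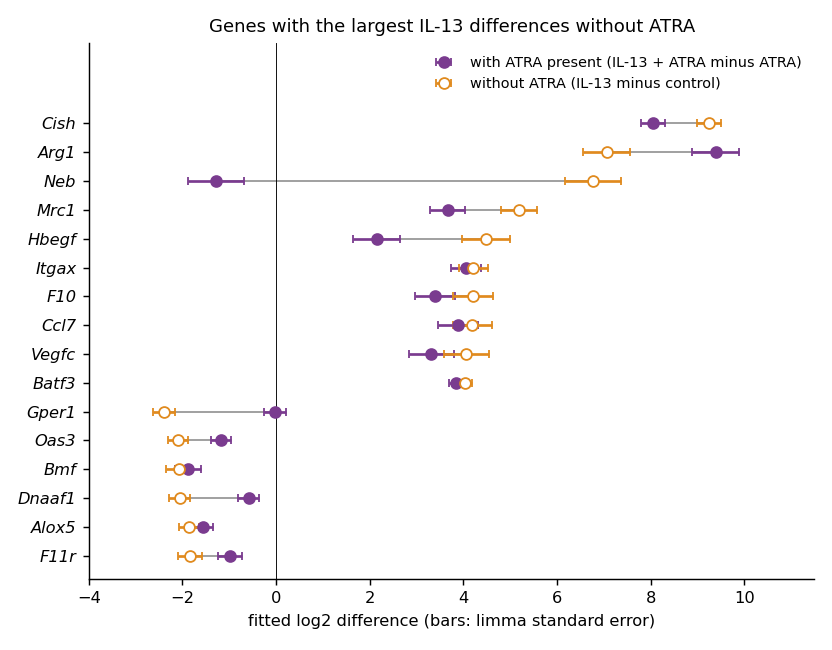
The fitted log2 difference with its limma standard error (x axis) is shown with ATRA present (filled purple) and without ATRA (open orange) for the 16 of 20 genes with the largest IL-13 differences without ATRA that were above background on an array with ATRA (rows). Batf3 (3.84 with ATRA, 4.04 without) and, on the probe shown, Itgax (4.06 and 4.21) had similar differences. Neb (−1.28 and 6.77) and Gper1 (−0.02 and −2.40) did not. A second Itgax probe, not shown, differed by 1.19 with ATRA and 2.68 without. Genes with a group below background, such as Arg1, Cish, Neb, Vegfc, F11r and Dnaaf1, are plotted as fitted. For Neb, 1 of 6 probes passed the filter and is shown.

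The test of whether the IL-13 difference depended on ATRA, which used fitted values also where groups were at background, called 3 of 15456 genes (0.0194%), and 564 had an unadjusted p under 0.05. Mpdz, a scaffold protein with PDZ domains, had 7.996 and 7.36 in cells given IL-13 with ATRA, against 0.81 and 0.94 in ATRA cells. Neither ATRA array was well above background, and the Mpdz rise was at least 23.5-fold (adjusted p = 0.0019). With IL-13 alone it was 1.36 and 0.82, against 1.06 and 0.72 in control cells, all below background. The other 2 Mpdz probes were well above background on 0 of 8 arrays. Pax9, a paired box transcription factor measured by 1 probe, had 7.03 and 7.95 with both agents, against 0.82 and 1.15 with ATRA. The Pax9 rise was at least 20.7-fold (adjusted p = 0.0022), and on the other 4 arrays it was not well above background. The interaction had an adjusted p of 0.0215 for Mpdz and 0.0345 for Pax9. The third gene, 1700025L06Rik, was at least 4.25-fold higher with IL-13 alone (5.47 and 4.75 against 1.54 and 0.92; adjusted p = 0.0052). It was not well above background on any array with ATRA (interaction adjusted p = 0.0311). Each of the 3 passed the filter on dim probes only through the treatment in which it was high. With no filter, or over genes well above background on all arrays, 0 interactions were called. Without either control array, or without the 12 h IL-13 with ATRA array, 0 interactions were called. In refits without another array 3 to 62 were called.

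Of 23 macrophage identity genes 22 were on the array and 21 were tested. Adgre1, the F4/80 antigen, stood at 13.75 and 13.57 with both agents, against 13.04 and 12.90 with ATRA (0.69 ± 0.13, adjusted p = 0.15). Cx3cr1 was the 1 called, and 17 of the 21 were lower in sign, with a median of −0.22. The summed linear signal of the list was 440142 to 533064 with both agents, against 586043 to 597752 with ATRA. Its part in the results was not tested. In bulk RNA, fewer cells expressing a gene and less RNA per cell cannot be told apart. Among markers of other cell types, 4 of 10 T cell (9 on the array), 3 of 8 B cell and 1 of 11 NK and mast cell genes passed the filter. So did 3 of 12 neutrophil and eosinophil (11 on the array) and 4 of 15 fibroblast, epithelial and endothelial genes. None of the markers that passed was called with ATRA present. Of the remaining lists, Gstt4, Casp6 and Slc9a9 were the called members of those for antioxidant, apoptosis and solute carrier genes. The medians of the lists for cell cycle, glycolysis, unfolded protein response, lysosome, respiratory chain, TLR signalling and lipid genes lay between −0.15 and 0.09, with 0 called in each. The lists for cytokines, retinoid targets, eicosanoid enzymes, osteoclasts, Fc receptors, G-protein signalling and the TNF superfamily likewise had 0 called and medians of −0.18 to 0.18. Mrc1 was the 1 called lectin or scavenger receptor of 23, Myc the 1 called immediate early gene of 28, and Itgax (higher) and Itga6 (lower) the called adhesion genes of 20.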

How the data were processed

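Total RNA of RAW264.7 cells was hybridized to 8 one-colour Agilent arrays of design 014868, and per the file headers the authors read them with Feature Extraction 10.7.1.1. The deposited processed signal is an intensity, corrected for background within each array and not normalized between arrays. The authors also deposited a table of log2 values, whose making is not given in the sources used here and which served as an alternative. Further Feature Extraction flags (0 or 1, other than signals), per the file headers, gave well above background and outlying spots. The 75th percentile ranged from 448 to 739, and 54.1% to 61.4% of probes were well above background. With 2 arrays per treatment, the number of arrays limits the precision. Slide 1 held the 12 h arrays and slide 2 those of 24 h.

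Outlying spots were set to missing, spots of a probe averaged, and log2 signals scaled by each array's 75th percentile. A probe was kept if at least 1 treatment had it well above background at both times. A gene's probe was that with the highest mean signal. Names came from RefSeq through accessions (27753 of 41174 probes), symbols (5537) or synonyms (459), and otherwise from the file (7425). limma 3.58.1 in R 4.3.3 fitted the 4 treatments plus time, with two-sided tests adjusted over all genes by the Benjamini-Hochberg method. Pairing within time comes from the design, and the fit without the time term is an alternative. The fit was tested on simulated data. Where a dim group was well above background on 0 of 2 arrays on any probe, the fold is given as at least N-fold. That limit takes, for each dim array, the higher of its own signal and its lowest signal well above background. Named genes were the 15 called with the largest difference in each direction and a RefSeq symbol, up to 8 interactions in each direction, the 10 most raised and lowered by IL-13 alone, and members of 37 lists. The comparison, lists and rules were chosen with earlier results of these data known.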

Additional observations from a re-analysis of the deposited data

Results flagged for a closer look

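The interaction test of limma called 3 genes, which were named for that reason. Each passed the filter on dim probes only through the treatment in which it was high. The interaction of each therefore rests on values at background in the other treatments. The fitted interaction, which includes groups at background and so has no exact size, was 6.60 log2 units for Mpdz (at least 23.5-fold higher with ATRA present, below background on all 4 arrays without ATRA) and 5.50 for Pax9 (at least 20.7-fold higher with ATRA present). It was −4.24 for 1700025L06Rik, which was at least 4.25-fold higher with IL-13 alone. For Mpdz 1 of 3 probes carried the signal. C4b, a complement component, was lower with ATRA present at both times (−0.52 in the fit, −0.87 at 12 h and −0.18 at 24 h) and higher without ATRA at both times (3.17 ± 0.44). Its interaction did not pass (adjusted p = 0.644), and it was well above background on 1 of 2 arrays with both agents.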

How the results depend on the processing

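With ATRA present, the direction was the same in all alternatives that tested them (17 to 19 a gene) for 32 of 33 named genes that were called. The exception, Fabp2, differed by 0.0021 under normexp correction. Cish, Mpdz and Pax9 kept their calls in all 18 that tested them, although Mpdz and Pax9 were at background on all arrays but those with both agents. Of 48 uncalled named genes with a measured difference 17 were called under at least 1 alternative. Sign changes without a call were seen for Gper1 (0.052 quantile, 0.0739 median scaling, 0.0561 normexp, 0.0517 deposited values, and from −0.20 to 0.17 in refits without 1 array), Dnaaf1 (0.0458 normexp), Stat6 (0.0757 median scaling, −0.0908 to 0.0632 without 1 array), H2-Ab1 (−0.15 to 0.74 without 1 array) and C1qa (−0.17 to 0.67 without 1 array). The authors' deposited values and quantile normalization gave 38 higher and 11 lower. Median scaling moved the median of all genes to 0.09. The counts of calls higher and lower were 4 and 0 with no filter on dim probes (1789 at unadjusted p under 0.05), 52 and 36 over genes well above background on all arrays, 95 and 72 with trend and robust moderation, 55 and 30 with time as a random block, and 9 and 1 with only the 4 arrays compared. Without the time term (no replicate block) they were 48 and 22, and this changed the split of higher and lower calls little. Refits without 1 array gave 3 to 82 higher and 0 to 71 lower. At least 2-fold at both times were 52 higher and 17 lower under normexp, 213 and 267 with no filter, and 75 and 47 above background on all arrays. Interactions called numbered 0 with no filter, above background on all arrays or with trend and robust moderation, 1 without the time term (the pairing by time), and 0 to 62 without 1 array. Genes called both with and without ATRA (43) numbered 1 with no filter, 66 above background on all arrays, 128 with trend and robust moderation, and 1 to 30 without 1 array. Causes were not tested, except that refits use fewer arrays. Counts by size could not be had without an array of the compared groups. Normexp, whose offset shrinks dim differences, gave 4.36 for Cish. Dim signal limits all genes given as at least N-fold.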

Other observations

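Of the 41 genes called higher with ATRA present, 19 had a mean level with both agents at or above that with IL-13 alone, and 25 had a larger difference at 12 h than at 24 h. The coagulation list had 0 of 11 tested members called with ATRA present and a median of 0.12. Serping1, a complement inhibitor, was well above background on 0 of 4 arrays with ATRA, while it was at least 2.52-fold higher with IL-13 alone (adjusted p = 0.0291).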
